A study of Mus musculus with 4 samples.

Results

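The machinery that carries newly made proteins into the endoplasmic reticulum (ER) and on to the Golgi was followed in single islet cells of mice that lack Sel1L in beta cells (KO) and of controls (WT). Members were chosen by gene symbol: all rows of the count tables whose names mark them as subunits or partners of the Sec61 channel with Sec62 and Sec63, of the translocon-associated complex (Ssr genes), of signal peptidase (Sec11 and Spcs genes), of the signal recognition particle (Srp genes with a number), of the COPII coat, the Sec22 SNAREs, the p24 cargo receptors (Tmed genes), the COPI coat or the TRAPP tethers. The rule found 67 of the 19074 genes listed. It used no measured value, but the members were chosen with earlier results of these data known. Beta, alpha and delta cells were told apart by their hormone transcripts alone. A beta cell had at least 10% of its transcripts from Ins1 and Ins2. An alpha cell had at least 3% from Gcg, and a delta cell at least 3% from Sst, both with under 5% from the insulin genes.

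A secretory protein is recognised by its signal sequence as it leaves the ribosome, is brought to the ER membrane by the signal recognition particle, and passes through the Sec61 channel while signal peptidase removes the signal. COPII vesicles then carry folded cargo from the ER to the Golgi, COPI vesicles bring escaped ER proteins and receptors back, and p24 proteins, SNAREs and TRAPP complexes help to select cargo and to catch the vesicles. Beta cells send preproinsulin down this route in bulk. Misfolded ER proteins are marked for degradation by the ubiquitin ligase HRD1, to which SEL1L binds as its adaptor.

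Single cells were profiled by 10x 3′ sequencing, which counts captured transcripts by a unique molecular identifier (UMI) on each. There were 2 KO libraries, from mice in which Cre expressed from the insulin gene Ins1 deletes floxed Sel1L, and 2 WT libraries, from mice with the floxed Sel1L alleles and no Cre named, all on C57BL/6. Islets of both groups recovered overnight in culture medium before they were dissociated with trypsin. For both groups the labels give 7 weeks as the age, where the series' text has 5 weeks. No library with Cre and intact Sel1L was analysed here, so what Cre does and what loss of Sel1L does cannot be told apart. Alpha and delta cells do not express Ins1, so in them Sel1L is not the intended target. The labels do not say whether replicates were separate animals, so the p-values measure differences against the spread between these libraries.

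After removal of called doublets, the KO libraries held 2393 and 1370 beta, 764 and 329 alpha and 305 and 230 delta cells, and the WT libraries held 3542 and 3474 beta, 1108 and 936 alpha and 459 and 530 delta cells. Between 1 and 9 cell barcodes were shared by any pair of libraries. In each class, every marker on its own list (12 beta, 10 alpha and 6 delta markers) was read in every library. In KO beta cells all 9 beta markers other than hormone genes were lower, and together they took 1662 and 1754 CPM (counts scaled to a common total, here of non-hormone UMIs) in KO libraries, against 4687 and 4810 in WT libraries. Own markers moved in the other classes as well. Of 8 tested alpha markers 2 were lower in KO alpha cells (list at 7489 and 7616 CPM, against 8206 and 7891 in WT libraries). In KO delta cells 2 of 5 tested delta markers were lower (10427 and 9901 CPM, against 15196 and 13817). KO cells had more UMIs outside the hormone genes. Over all UMIs the medians of beta cells overlapped, with 43687 and 51214.5 in KO libraries, against 46784.5 and 49573.5 in WT libraries. The median beta cell had 21775 and 24014.5 UMIs outside the hormone genes in KO libraries, against 12154 and 12538.5 in WT libraries. The median alpha cell had 15554.5 and 16485 in KO libraries, against 10022.5 and 10337.5 in WT libraries, and the median delta cell had 11601 and 12693 against 7763 and 8406.5. The mitochondrial share of UMIs ran from 3.57% to 3.75% over the classes in KO libraries, against 1.70% to 2.67% in WT libraries. Markers of other cells also moved within KO beta cells: 3 of 4 tested Schwann cell markers were higher (22.3 and 23.5 CPM of non-hormone UMIs for the list of 5 in KO libraries, against 12.2 and 11.1 in WT libraries), 3 of 6 macrophage markers were lower (45.1 and 42.4 against 91.4 and 81.7), 3 of 5 tested ductal markers were lower and 1 higher (427 and 398 against 398 and 448), the 1 tested T or B cell marker was lower (10.97 and 16.9 for the list of 3 against 44.6 and 36.4), and the 7 acinar markers stayed at 0.852 and 0.738 against 0.621 and 1.23, with 2 to 4 of them at 0 in each library. The part of these differences in the results below was not tested. Sel1l itself was read in every library, and its CPM are of all UMIs, scaled by the TMM method as in the tests below. It held 30.97 and 32.9 CPM in KO beta cells, against 45.4 and 45.9 CPM in WT beta cells (log2 change -0.51, edgeR adjusted p = 0.00125). Per cell it had 2.01 and 2.37 UMIs in KO libraries, against 1.62 and 1.67 in WT libraries. Reads of a 3′ assay may lie outside the deleted part, so this value does not check the deletion.

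In KO beta cells most of the machinery stood higher relative to the median gene, and the genes called higher were in all groups but the TRAPP tethers. The 67 members took 2.04% and 2.02% of the non-hormone UMIs of beta cells in KO libraries, against 1.48% and 1.57% in WT libraries, a ratio of means of 1.33. The lowest KO library was above the highest WT library. In alpha cells the members took 1.24% and 1.27% in KO libraries, against 1.32% and 1.38% in WT libraries, and in delta cells 1.28% and 1.24% against 1.47% and 1.53%. Here the KO libraries lay below both WT libraries. Of all UMIs, hormones included, the alpha share was 0.742% and 0.777% in KO libraries, against 0.748% and 0.758% in WT libraries, and the groups overlapped. The plot of per-cell shares shows the same order for single cells: the median KO beta cell gave 2.06% and 2.02% of its non-hormone UMIs to the members, against 1.41% and 1.51% for the median WT beta cell.

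**Figure D1:**
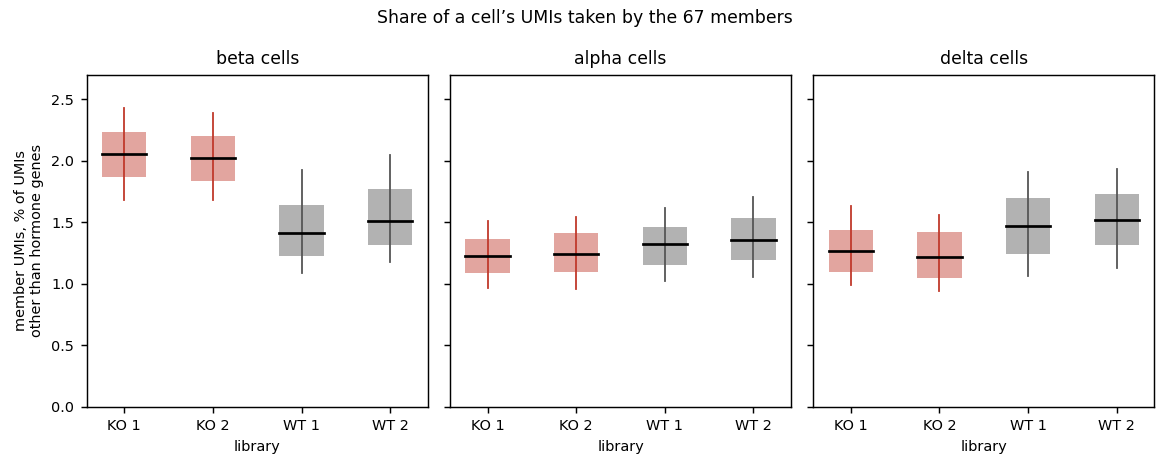
Share of each cell's non-hormone UMIs (y axis, percent) that came from the 67 members, for the KO and WT libraries (x axis) in beta, alpha and delta cells; black lines are medians, boxes run from the 25th to the 75th percentile of cells and thin lines from the 10th to the 90th. The KO beta medians, 2.06% and 2.02%, lie above the 75th percentile of both WT libraries (1.64% and 1.77%), while the KO medians of alpha and delta cells lie below the WT medians.

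Insulin transcripts filled fewer of the UMIs of KO beta cells, with a median share of 40.04% and 43.8% in KO libraries, against 68.2% and 68.8% in WT libraries. The members' share was therefore also read at matched insulin shares, always as a percent of the non-hormone UMIs. Among beta cells with 50 to 70% insulin UMIs the members held 2.09% and 2.03% in KO libraries, against 1.48% and 1.56% in WT libraries, over 449 and 382 KO and 2082 and 2064 WT cells. Among cells with 30 to 50% insulin UMIs they held 2.05% and 2.03% in KO libraries, against 1.24% and 1.32% in WT libraries. This bin had 1391 and 774 KO cells but only 144 and 40 WT cells, a small part of the WT beta cells. So within these bins every KO library lay above every WT library. Above 70% insulin UMIs there were 4 and 7 KO cells, with 1.66% and 1.51%, against 1277 and 1352 WT cells with 1.53% and 1.62%, and the groups overlapped.

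**Figure D2:**
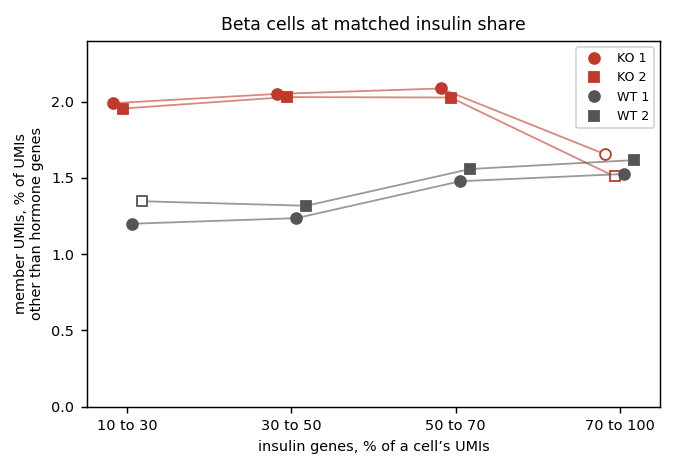
Members' share of non-hormone UMIs (y axis, percent) in beta cells binned by the share of insulin UMIs (x axis, percent), 1 line per library; open symbols mark bins of fewer than 20 cells. In the 3 bins below 70% both KO libraries lie between 1.96% and 2.09% and both WT libraries between 1.20% and 1.56%.

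UMIs were summed per class and library, and genotypes were compared with edgeR's quasi-likelihood test, in which levels are counts per 1e6 scaled by the TMM method (CPM) and a gene is called at an adjusted p under 0.05 over all genes tested. Of the 67 members, 66 passed the filter on low counts in each class. Sec31b, a paralogue of the COPII subunit Sec31a, did not, with 6 and 12 UMIs in all KO beta cells, against 8 and 8 in WT beta cells. In KO beta cells 37 of the 66 were higher, 6 were lower and 23 were not called, where 20.5% of the 14897 genes tested were higher and 21.1% were lower. That is 56.1% of the members higher and 9.09% lower. Among genes at 20 CPM or more, 32 of 51 members were higher and 3 were lower, against 20.8% and 33.3% of all such genes. The median member had a log2 change of 0.28, against 0.00 for all genes tested. In CPM the KO and WT libraries did not overlap, in either direction, for 54 of the 67 members in beta, 52 in alpha and 46 in delta cells. The same count over all genes is not given here. An exact permutation test of 2 against 2 libraries cannot go below p = 0.333, so non-overlap is given below as description only. With each sum scaled only by its total UMIs, or only by its number of cells, 65 members were higher and 0 were lower, but 12655 and 12682 of the 14897 genes tested were higher as well, and the median of all genes moved to 0.91 and 0.92 on the log2 scale. The changes given here are therefore relative to the median gene. Counted per cell, with no scaling, 66 of the 67 members had more UMIs in KO than in WT beta cells, by a median of 2.31-fold. So did 66 of the 67 in alpha cells and 67 in delta cells. KO cells of each class also had more UMIs outside the hormone genes, and no per-cell count was made over all genes. These per-cell counts are therefore not read as particular to the members or to beta cells.

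**Figure D3:**
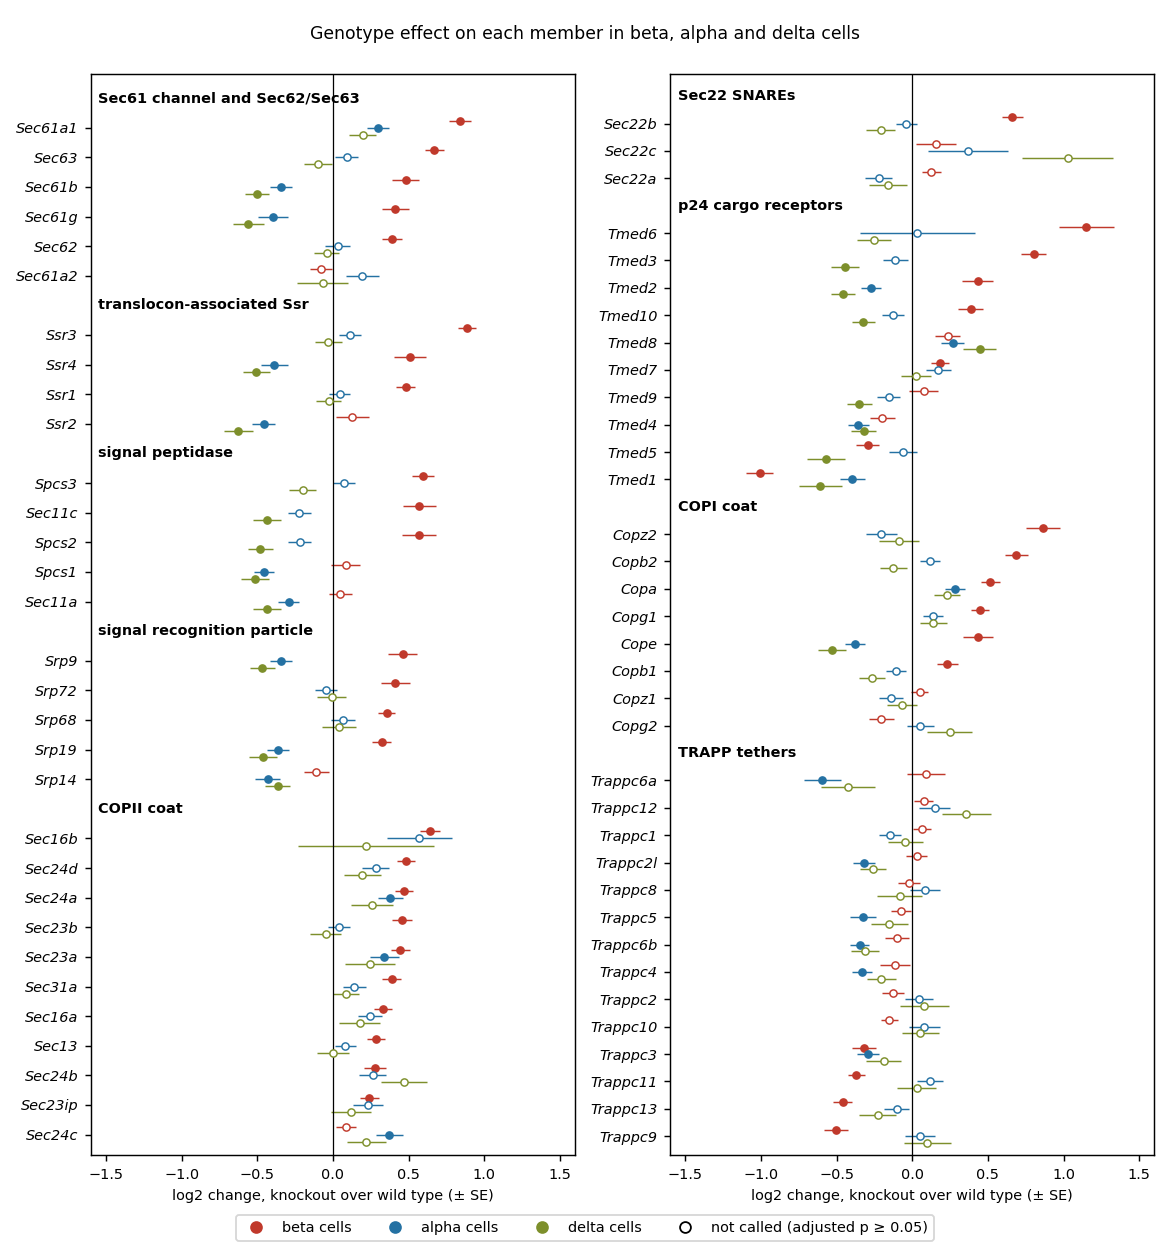
Log2 change of every tested member, KO over WT (x axis, with SE as bars), in beta, alpha and delta cells, grouped by role (y axis); filled points were called. In beta cells 37 members lie above 0 as calls and 6 below, 4 of them TRAPP genes; all of these 6 but Tmed1 turn sign when sums are scaled by total UMIs or cell number.

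The signal recognition particle brings ribosomes to the ER, and 4 of its 5 listed protein subunits were higher in KO beta cells. Srp9, which with Srp14 slows translation while the ribosome travels, held 257 and 252 CPM in KO beta cells, against 169 and 202 CPM in WT beta cells (log2 change 0.46, SE 0.0985, adjusted p = 0.0105). Srp72, which pairs with Srp68 on the particle's RNA, held 67.7 and 67.3 CPM in KO beta cells, against 46.2 and 55.7 CPM in WT beta cells (log2 change 0.41, SE 0.0946, adjusted p = 0.0137). Its partner Srp68 had a log2 change of 0.36 (SE 0.0563, adjusted p = 0.00328). Srp19, which prepares the RNA for the subunit that binds the signal, had 0.32 (SE 0.0627, adjusted p = 0.00732). For these 4 genes both KO libraries were above both WT libraries, and the adjusted p was 0.0518 for Srp72 without KO library 2 and 0.0567 for Srp19 without KO library 1. Srp14 was not called, with 167 and 189 CPM in KO beta cells, against 194 and 193 CPM in WT beta cells (log2 change -0.11, SE 0.0817, adjusted p = 0.315). On the list of the receptor and the signal-binding subunit, 4 of 5 genes were higher and none was lower. Srpr, the receptor's membrane-docked alpha subunit, held 252 and 247 CPM in KO beta cells, against 116 and 131 CPM in WT beta cells (log2 change 1.03, SE 0.0837, adjusted p = 0.000337). Its anchor Srprb had a log2 change of 0.85 (SE 0.0691). Srp54a, a copy of the signal-binding subunit with close paralogues, so that reads could be split between them, had 0.58 (SE 0.0614).

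All of the Sec61 channel genes but 1 were higher. Sec61a1 (ENSMUSG00000030082.14, chr6:88503579-88518905, minus strand, on GRCm38 with GENCODE annotation), the pore itself, held 99.4 and 95.5 CPM in KO beta cells, against 52.5 and 56.9 CPM in WT beta cells (log2 change 0.84, SE 0.0703, adjusted p = 0.000370). This is 6.44 and 6.897 UMIs per cell in KO libraries, against 1.87 and 2.07 in WT libraries. Sec63, which brings the chaperone BiP to the inner side of the channel, held 62.7 and 61.7 CPM in KO beta cells, against 38.3 and 40.2 CPM in WT beta cells (log2 change 0.67, SE 0.0618, adjusted p = 0.000500). Both genes had KO libraries close to each other and far above WT. The small subunits moved less on the log2 scale: Sec61b held 682 and 671 CPM in KO beta cells, against 457 and 517 CPM in WT beta cells (log2 change 0.48, SE 0.0905, adjusted p = 0.00641). Sec61g held 769 and 782 CPM in KO beta cells, against 621 and 551 CPM in WT beta cells (log2 change 0.41, SE 0.0905, adjusted p = 0.0116), and this call was lost without either KO library (adjusted p = 0.0645 without KO library 1 and 0.0906 without KO library 2). Sec62, which acts with Sec63 on short substrates, had a log2 change of 0.39 (adjusted p = 0.00440). Sec61a2, the second pore paralogue, was not called (-0.08, adjusted p = 0.421). Hspa5, which encodes BiP, held 524.2 and 521.1 CPM in KO beta cells, against 263.7 and 303.4 CPM in WT beta cells (log2 change 0.89, adjusted p = 0.00074). In KO alpha cells Hspa5 was not called (-0.10, adjusted p = 0.428). In KO delta cells it was lower relative to the median gene (-0.45, adjusted p = 0.00651). Per delta cell it had 10.5 and 11.7 UMIs in KO libraries, against 8.66 and 10.3 in WT libraries.

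The translocon-associated proteins sit beside the channel and are known to help preproinsulin enter the ER. Ssr3, the gamma subunit (ENSMUSG00000027828.12, chr3:65379655-65392623, minus strand), had the largest log2 change among members with at least 20 CPM in the higher genotype. It held 95.7 and 96.4 CPM in KO beta cells, against 51.3 and 53.02 CPM in WT beta cells (log2 change 0.89, SE 0.0622, adjusted p = 0.000201). Ssr1, the alpha subunit, held 84.7 and 82.2 CPM in KO beta cells, against 59.2 and 61.03 CPM in WT beta cells (log2 change 0.48, SE 0.0625, adjusted p = 0.00160). Ssr4, the delta subunit, held 698 and 723 CPM in KO beta cells, against 455 and 545 CPM in WT beta cells (log2 change 0.51, SE 0.106, adjusted p = 0.00915), and without KO library 2 its adjusted p was 0.0575. The groups did not overlap for these 3 subunits. They did for the beta subunit Ssr2, which held 159 and 146 CPM in KO beta cells, against 126 and 154 CPM in WT beta cells and was not called (log2 change 0.13, SE 0.107, adjusted p = 0.368).

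Signal peptidase cuts the signal off as the chain enters. Of its 5 subunits 3 were higher in KO beta cells. The accessory subunit Spcs3 held 124 and 123 CPM in KO beta cells, against 78.5 and 85.6 CPM in WT beta cells (log2 change 0.60, SE 0.0716, adjusted p = 0.00120). Sec11c, 1 of the 2 catalytic subunits, held 331 and 318 CPM in KO beta cells, against 197 and 242 CPM in WT beta cells (log2 change 0.57, SE 0.109, adjusted p = 0.00682). Spcs2 held 304 and 289 CPM in KO beta cells, against 179 and 223 CPM in WT beta cells (log2 change 0.57, SE 0.112, adjusted p = 0.00765). For Sec11c and Spcs2 the KO libraries were close to each other while the WT libraries lay apart, and the groups still did not overlap. The other catalytic subunit, Sec11a, held 84.5 and 79.5 CPM in KO beta cells, against 75.8 and 83.5 CPM in WT beta cells and was not called (adjusted p = 0.629), nor was Spcs1 (0.08, adjusted p = 0.502).

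The COPII coat, which buds vesicles from the ER, was the group with the highest share of calls: 10 of its 11 tested genes were higher, by 1.18- to 1.56-fold in CPM, and Sec24c was not called. By symbol the group also holds Sec16a, Sec16b and Sec23ip (1.18-fold), which are not subunits of the coat itself. Sec24d, a cargo-binding inner subunit, held 38.1 and 37.1 CPM in KO beta cells, against 26.5 and 27.5 CPM in WT beta cells (log2 change 0.49, SE 0.0590, adjusted p = 0.00126). Its partner Sec23b held 41.2 and 40.3 CPM in KO beta cells, against 28.6 and 31.1 CPM in WT beta cells (log2 change 0.45, SE 0.0663, adjusted p = 0.00243). Sec31a, which builds the outer cage with Sec13, held 83.7 and 79.9 CPM in KO beta cells, against 63.2 and 62.4 CPM in WT beta cells (log2 change 0.39, SE 0.0628, adjusted p = 0.00359). In these 3 genes every KO library was above every WT library. Sec16a, the scaffold of ER exit sites, had a log2 change of 0.33 (SE 0.0581, adjusted p = 0.00480). Its shorter paralogue Sec16b, named here after its values were seen, had 0.64 at 12.8 and 13.1 CPM in KO beta cells, against 8.59 and 8.06 CPM in WT beta cells (adjusted p = 0.000733). Of the Sec22 SNAREs, Sec22b, a SNARE for fusion between ER and Golgi, held 87.5 and 83.8 CPM in KO beta cells, against 51.9 and 56.9 CPM in WT beta cells (log2 change 0.66, SE 0.0724, adjusted p = 0.000887). Sec22a and Sec22c were not called (adjusted p = 0.148 and 0.381).

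Members of the p24 family moved in both directions. Tmed3 (ENSMUSG00000032353.9, chr9:89699206-89705068, minus strand) held 393 and 385 CPM in KO beta cells, against 212 and 237 CPM in WT beta cells (log2 change 0.80, SE 0.0843, adjusted p = 0.000775). Tmed2 and Tmed10 form the core of p24 complexes with each other. Tmed2 held 227 and 217 CPM in KO beta cells, against 150.2 and 181 CPM in WT beta cells (log2 change 0.43, SE 0.101, adjusted p = 0.0148), and Tmed10 held 282 and 269 CPM in KO beta cells, against 200.1 and 223 CPM in WT beta cells (log2 change 0.39, SE 0.0833, adjusted p = 0.0108); without KO library 1 their adjusted p was 0.0631 and 0.0680. Tmed6, named after its values were seen, had the largest log2 change of all members at low levels, with 11.9 and 11.1 CPM in KO beta cells, against 4.09 and 6.33 CPM in WT beta cells (log2 change 1.15, SE 0.182, adjusted p = 0.00332). Tmed7 was also higher (0.18, adjusted p = 0.0492). The lower genes were Tmed5 and Tmed1, and the next sentences give values relative to the median gene. Tmed5 held 18.1 and 19.6 CPM in KO beta cells, against 21.9 and 24.5 CPM in WT beta cells (log2 change -0.29, SE 0.0772, adjusted p = 0.0223), its adjusted p was 0.149 without KO library 1 and 0.0513 without KO library 2, and it stood at 0.62 under library-size scaling and at 0.63 under scaling by cell number. Tmed1, named after its values were seen, held 3.46 and 3.28 CPM in KO beta cells, against 6.61 and 7.06 CPM in WT beta cells (log2 change -1.01, SE 0.0875, adjusted p = 0.000408). With either of the other scalings Tmed1 kept its sign and was not called (adjusted p = 0.401 with library size only and 0.555 with scaling by cell number). It was the 1 member with fewer UMIs per KO beta cell, at 0.224 and 0.237 UMIs per cell in KO libraries, against 0.235 and 0.256 in WT libraries.

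The COPI coat returns receptors and escaped ER proteins from the Golgi, and 6 of its 8 listed genes were higher. Copz2, a zeta subunit paralogue, held 51.6 and 51.3 CPM in KO beta cells, against 25.02 and 31.9 CPM in WT beta cells (log2 change 0.86, SE 0.111, adjusted p = 0.00156). Its paralogue Copz1 was not called (0.05, adjusted p = 0.529). Copb2, the beta-prime subunit that binds the retrieval signal of cargo, held 137 and 134 CPM in KO beta cells, against 80.3 and 88.96 CPM in WT beta cells (log2 change 0.69, SE 0.0756, adjusted p = 0.000906). Copa, the alpha subunit of the outer layer, held 110.0 and 108 CPM in KO beta cells, against 77.5 and 75.9 CPM in WT beta cells (log2 change 0.52, SE 0.0626, adjusted p = 0.00124). Copg1, a gamma subunit, held 74.02 and 74.7 CPM in KO beta cells, against 54.8 and 54.8 CPM in WT beta cells (log2 change 0.45, SE 0.0596, adjusted p = 0.00173), and its paralogue Copg2 was not called (-0.21, adjusted p = 0.0881). So in both zeta and gamma pairs 1 paralogue was called, without a test of the difference within the pair. Cope and Copb1 were higher by 0.43 and 0.23 (adjusted p = 0.0131 and 0.0386).

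The TRAPP complexes tether vesicles and activate Rab GTPases, and none of their 14 listed genes was called higher: 4 were lower relative to the median gene, or 28.6%, near the 21.1% of all genes tested, and 10 were not called. Trappc13 held 17.8 and 17.5 CPM in KO beta cells, against 23.4 and 25.3 CPM in WT beta cells (log2 change -0.46, SE 0.0635, adjusted p = 0.00197). Trappc11 held 15.4 and 15.8 CPM in KO beta cells, against 20.2 and 20.4 CPM in WT beta cells (log2 change -0.37, SE 0.0566, adjusted p = 0.00292). The core subunit Trappc3 held 30.6 and 28.3 CPM in KO beta cells, against 34.97 and 39.02 CPM in WT beta cells (log2 change -0.32, SE 0.0776, adjusted p = 0.0167). All 3 turned sign under other scalings, standing at 0.45, 0.54 and 0.59 under library-size scaling and at 0.46, 0.55 and 0.597 under scaling by cell number. In beta cells with 40 to 60% insulin UMIs, Trappc11 and Trappc3 were not called (adjusted p = 0.290 and 0.454), and without KO library 2 Trappc3 was not called either (adjusted p = 0.126). Trappc9, named after its values were seen, had -0.502 at 8.94 and 8.99 CPM in KO beta cells, against 13.6 and 11.9 CPM in WT beta cells (adjusted p = 0.00324). Summed over the group, the TRAPP genes had a ratio of KO over WT shares of non-hormone UMIs of 0.947. This ratio was 1.48 for the Sec22 SNAREs, 1.41 for the Ssr genes, 1.397 for the Sec61 group and 1.39 for COPI. It was 1.38 for signal peptidase, 1.33 for p24, 1.31 for COPII and 1.20 for the signal recognition particle.

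**Figure D4:**
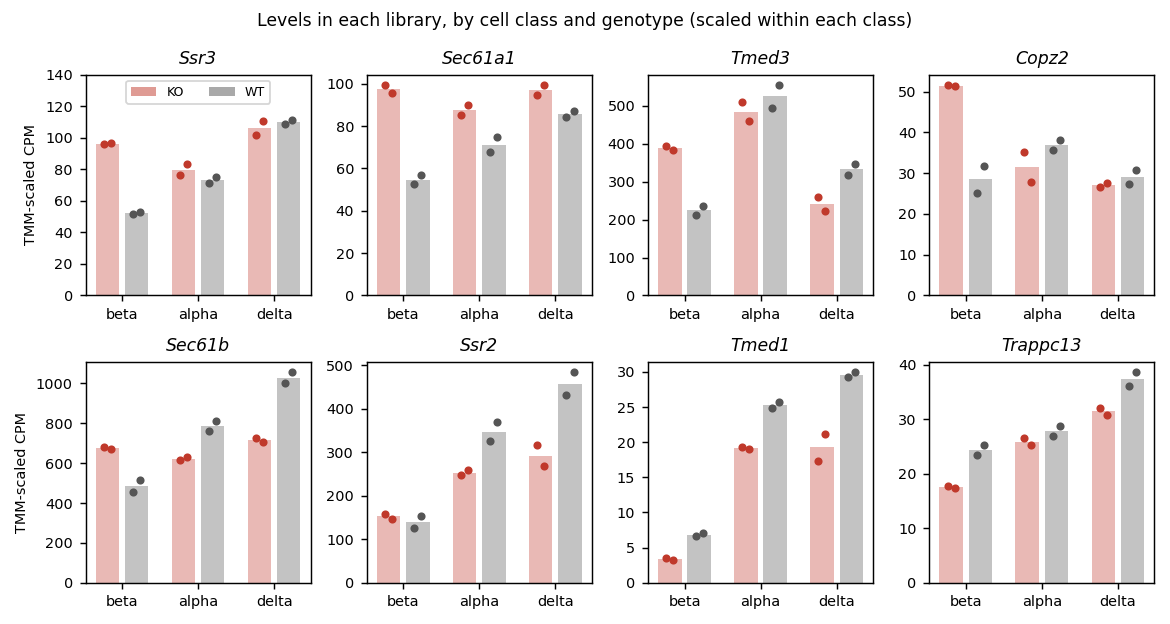
Levels of 8 members (y axis, TMM-scaled CPM, scaled within each class, so levels are comparable between genotypes and not between classes) in KO and WT libraries of beta, alpha and delta cells (x axis); points are libraries and bars their means. Ssr3, Sec61a1, Tmed3 and Copz2 stand higher in KO beta cells, Sec61b stands higher in KO beta and lower in KO alpha and delta cells, and Tmed1 and Trappc13 stand lower in KO beta cells; scaling by cell number turns the sign of Trappc13 in beta cells, and of Ssr2 and Sec61b in alpha and delta cells.

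Other genes of the same route were counted from 7 lists, in which 58 of 120 tested genes were higher and 15 were lower in KO beta cells, where 20.5% and 21.1% of all genes were. The lists, like the members, were chosen with earlier results of these data known. Of the 12 oligosaccharyltransferase genes, which add sugar chains to entering proteins, 9 were higher. Magt1, an oxidoreductase subunit of that enzyme, held 112 and 114 CPM in KO beta cells, against 52.04 and 56.4 CPM in WT beta cells (log2 change 1.07, SE 0.0699, adjusted p = 0.000172), and the small subunit Tmem258 had a log2 change of 0.62. Of 14 COPI partners 10 were higher and 1 was lower. Kdelr3, a receptor that returns ER proteins to the ER, held 26.5 and 24.9 CPM in KO beta cells, against 2.71 and 3.28 CPM in WT beta cells (log2 change 3.11, SE 0.0992, adjusted p = 2.42e-05), the largest change named here. Its paralogue Kdelr2 had a log2 change of 0.70. Of 33 ER-Golgi SNAREs and tethers 18 were higher and 2 were lower, with the Golgi SNAREs Gosr2 and Gosr1 at 0.58 and 0.60. Of 21 tested COPII partners 8 were higher and 3 were lower. Creb3l1, a membrane-bound transcription factor that itself travels to the Golgi, had 0.61, and the cycling membrane protein Ergic1 had -0.60. Of 17 translocon partners 7 were higher and 4 were lower, with the hydroxylase gene Asph at 0.79, the ribosome-binding Rrbp1 at 0.62 and Tmem147 at -0.64. The list of the GET and EMC routes, which insert other membrane proteins, had 2 of 18 tested genes higher and 5 lower. Asna1, the ATPase of the GET route, held 14.1 and 13.7 CPM in KO beta cells, against 21.8 and 21.2 CPM in WT beta cells (log2 change -0.62, SE 0.0576, adjusted p = 0.000519). In alpha cells 8 of 119 tested genes of these lists were higher and 20 were lower (6.84% and 9.97% of all genes), and in delta cells 1 of 118 was higher and 18 were lower (3.17% and 4.9%).

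Promoters were read for sequence elements bound by factors of the unfolded protein response. RefSeq windows (GRCm38.p6, from 250 bases before to 50 after each start) were matched for 55 of the 67 members. The core of the unfolded protein response element, TGACGTGG on either strand, stood in 5 of the 55, or 9.09%, against 0.714% of 27025 genes with a window, 1.02% of those tested in beta cells and 1.72% of those called higher there. All 5 were listed here under the COPII or the COPI coat and were higher in KO beta cells (30 of the 55 were). They are shown 5′ to 3′ on the gene's strand with the element in capitals, as its reverse complement where it lies on the other strand.
Sec16b, chr1:157506744-157506767, plus strand: tgtgtggcTGACGTGGcacggcag
Sec24d, chr3:123267462-123267485, plus strand: cgggcgccTGACGTGGcactagca
Sec23a, chr12:59011996-59012019, minus strand: ctccccttTGACGTGGcagaggcg
Copb2, chr9:98563716-98563739, plus strand: cggaagttCCACGTCAgtgggttg
Copb1, chr7:114254693-114254716, minus strand: gcccccttCCACGTCAgccaagga
The element begins 44 bases before the start in Sec16b, 26 before in Sec24d, 28 before in Copb1 and 7 before in Copb2, and at base 7 after it in Sec23a. Log2 changes in KO beta cells were 0.64 for Sec16b, 0.49 for Sec24d, 0.45 for Sec23a, 0.69 for Copb2 and 0.23 for Copb1.

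The shorter run ACGTGG, which is contained in TGACGTGG, stood on either strand in 22 of the 55 windows, against 9.39% of all genes, 12.98% of those tested in beta cells and 14.5% of those called higher. It was in 15 of the 30 members called higher and in 7 of the 25 others. Among the members with the largest changes, Tmed6, Tmed1, Sec61a1 and Sec22b had no match, which can also mean that no window was found. Copb2, shown above, held it, and so did Ssr3, Copz2, Tmed3 and Sec63.
Ssr3, chr3:65392730-65392751, minus strand: ttgaggcgCCACGTaccctgaa
Copz2, chr11:96849748-96849769, plus strand: ctgcaacgACGTGGgggtcggg
Tmed3, chr9:89705231-89705252, minus strand: ctccggagACGTGGcagacact
Tmed3, chr9:89705000-89705021, minus strand: agctcgcgCCACGTctcttcag
Sec63, chr10:42761466-42761487, plus strand: tgcgcgcgCCACGTctccctca
Tmed3 is shown with both of its matches, and Copz2 held another that begins at base 41 after the start. The full ER stress elements ERSE and ERSE-II, searched on both strands, stood in none of the 55 windows, and in 37 and 12 of the 27025 genes. A match describes these letters and is no evidence of binding.

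In alpha cells, 6 of the 66 tested members were higher and 19 were lower in KO libraries, where 6.84% of 12782 genes tested were higher and 9.97% were lower. In delta cells 1 was higher and 19 were lower, where 3.17% of 11650 genes were higher and 4.9% were lower. Among genes at 20 CPM or more, 5 of 55 members were higher and 19 lower in alpha cells, against 8.69% and 23.2% of such genes, and 1 of 59 was higher and 19 lower in delta cells, against 5.02% and 9.73%. The median member had a log2 change of -0.00362 in alpha and -0.09 in delta cells. Spcs1 held 129 and 137 CPM in KO alpha cells, against 182 and 182 CPM in WT alpha cells (log2 change -0.46, SE 0.0672, adjusted p = 0.00410). Ssr2 held 248 and 259 CPM in KO alpha cells, against 326 and 369 CPM in WT alpha cells (log2 change -0.46, SE 0.0778, adjusted p = 0.00628). Cope, the COPI epsilon subunit, held 158 and 158 CPM in KO alpha cells, against 202 and 208 CPM in WT alpha cells (log2 change -0.38, SE 0.0646, adjusted p = 0.00634). In all 3 both KO libraries were below both WT libraries, and scaling by cell number turned their signs to 0.32, 0.32 and 0.40. In delta cells Ssr2 held 316 and 268 CPM in KO delta cells, against 431 and 483 CPM in WT delta cells (log2 change -0.63, SE 0.0945, adjusted p = 0.00311). Sec61b held 729 and 707 CPM in KO delta cells, against 1003 and 1056 CPM in WT delta cells (log2 change -0.50, SE 0.0773, adjusted p = 0.00348), and Spcs2 held 312 and 321 CPM in KO delta cells, against 430.0 and 464 CPM in WT delta cells (log2 change -0.48, SE 0.0808, adjusted p = 0.00543). These 3 turned to 0.0447, 0.18 and 0.198 with scaling by cell number. The members higher in alpha cells were Sec61a1 (0.297), Copa (0.28), Sec23a (0.34), Sec24a (0.38), Sec24c (0.37) and Tmed8 (0.27), and Tmed8 was also the 1 higher in delta cells (0.45).

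Most of these calls in alpha and delta cells were lost when a KO library was left out, while the log2 changes of the named members stayed close to those given. In alpha cells Spcs1 had -0.42 without KO library 1 (adjusted p = 0.0594) and kept its call without KO library 2. Ssr2 had -0.43 and -0.49 (adjusted p = 0.0706 and 0.0609), and Cope -0.38 and -0.38 (adjusted p = 0.0653 and 0.0650), without KO library 1 and 2. In delta cells Ssr2 had -0.53 without KO library 2 (adjusted p = 0.0790) and kept its call without KO library 1. Sec61b had -0.53 and -0.49 (adjusted p = 0.0594 and 0.0790), and Spcs2 -0.47 and -0.51 (adjusted p = 0.0823 and 0.0742), without KO library 1 and 2. Spcs2 was at an adjusted p of 0.0531 without WT library 2. Without KO library 1 the counts of lower members fell to 0 in alpha and 1 in delta cells, and without KO library 2 to 1 and 0. Over all genes those fits gave 25 and 55 lower calls in alpha and 37 and 47 in delta cells. Without WT library 2, 15 members were lower in alpha and 3 in delta cells, and without WT library 1, 19 and 13. The 6 higher calls in alpha cells became 0 without either KO library and 1 without WT library 1, and the 1 in delta cells was lost without any of the 4 libraries. At an unadjusted p under 0.05 the fits without a KO library still gave 20 to 25 lower members in each of these classes by edgeR. Relative to cell number, 64 members were higher in KO alpha and 48 in KO delta cells and none was lower by edgeR. The same scaling called 11187 of 12782 genes higher in alpha and 8924 of 11650 in delta cells, so the members' counts are not above the share of all genes in delta cells, and the median of all genes moved to 0.79 and 0.68. At an unadjusted p under 0.05 the same scaling gave 0 lower members in alpha and 0 in delta cells. Insulin transcripts in alpha cells, which droplet data can hold as free RNA of other cells, were also lower in KO libraries, with median shares of 0.150% and 0.123% in KO alpha cells, against 0.477% and 0.535% in WT alpha cells. Among markers of other cells, all 4 cycling markers were higher in KO alpha cells (summed level 14.7 and 27.4 CPM of non-hormone UMIs in KO libraries, against 2.22 and 2.89 in WT libraries). In the same cells 3 of 6 endothelial markers (20.02 and 21.9 against 11.4 and 13.7) and 2 of 4 tested Schwann cell markers (51.2 and 76.4 against 34.3 and 26.7) were higher. The part of these in the members' levels was not tested.

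Transcript length moved with these changes. The 19 members lower in alpha cells had a median spliced length of 1300 bases, against 3466 for the 41 not called and 4541.5 for the 6 higher. Over all genes tested the medians were 1480 bases for those lower in alpha cells and 4712 for those higher. In delta cells the 19 lower members had a median of 1346 bases, and all lower and higher genes had 1358 and 5152. Sec61b (564 bases), Ssr4 (800) and Ssr2 (1189) are among the short members, and Copa (4622) and Tmed8 (7409) among the long ones. Split at 2000 bases, a limit set after the values were seen, 16 of the 26 short members were lower in alpha cells, or 61.5%, against 25.4% of all short genes. Of the 40 long members 3 were lower and 6 were higher, against 4.23% and 8.65% of all long genes. In delta cells 15 of the 26 short members were lower, or 57.7%, against 13.99% of all short genes, and 4 of the 40 long members were lower, against 1.70% of all long genes. In beta cells both length groups of members stood higher: 13 of 26 short members, against 15.3% of all short genes, and 24 of 40 long members, against 22.6% of all long genes. The cause of the length relation, which covers the whole transcriptome of these libraries, was not tested.

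**Figure D5:**
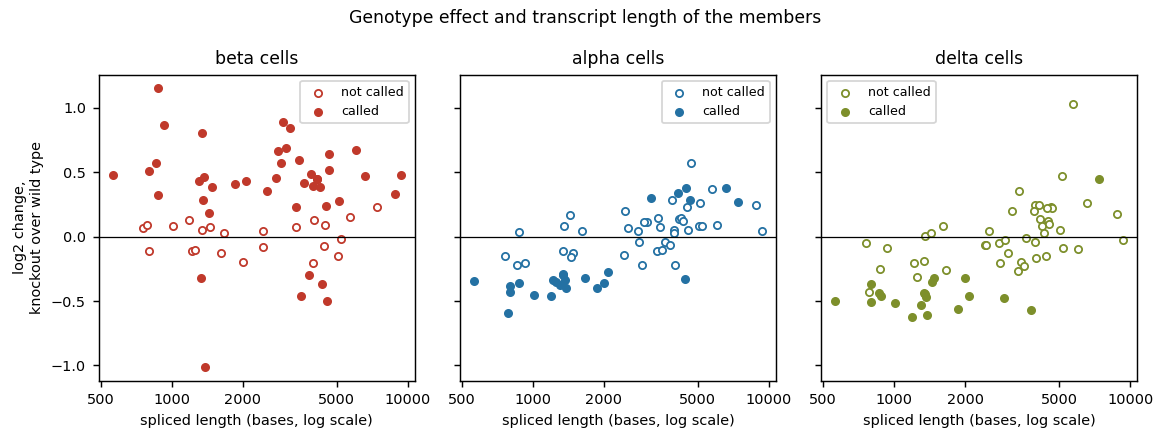
Log2 change of each tested member, KO over WT (y axis), against the spliced length of its longest basic GENCODE transcript (x axis, bases, log scale), in beta, alpha and delta cells; filled points were called. In alpha and delta cells the lower calls (19 in each, none with sums scaled by cell number) have medians of 1300 and 1346 bases, while in beta cells higher calls lie at short and long lengths.

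The difference between the genotype effects was tested itself, in 1 model of 12 sums with the library as a block. The log2 change was higher in beta than in alpha cells for 40 of 66 members and lower for 5, where 13.4% and 12.7% of 14209 genes tested were. Against delta cells it was higher for 37 and lower for 2, where 9.38% and 9.11% of genes were. Every tested Ssr, signal peptidase and Srp gene had a more positive change in beta cells against both other classes, and so did 5 of the 6 Sec61, Sec62 and Sec63 genes. Among them Ssr2, Spcs1, Sec11a and Srp14 were not called in beta cells (log2 changes 0.13, 0.08, 0.05 and -0.11). Relative to the median gene they were called lower in alpha cells (-0.46, -0.46, -0.29 and -0.43) and in delta cells (-0.63, -0.51, -0.44 and -0.37). Tmed3 had the smallest p against both, with differences of 0.94 (SE 0.0644, adjusted p = 5.37e-08) against alpha and 1.26 (SE 0.0714, adjusted p = 1.04e-08) against delta cells. In the classes themselves Tmed3 held 393 and 385 CPM in KO beta cells, against 212 and 237 CPM in WT beta cells. It held 509 and 461 CPM in KO alpha cells, against 495 and 555 CPM in WT alpha cells, and 259 and 223 CPM in KO delta cells, against 318 and 346 CPM in WT delta cells. So the KO libraries stood above WT in beta cells, overlapped WT in alpha cells and lay below WT in delta cells. Sec61b differed by 0.85 (SE 0.0623, adjusted p = 1.12e-07) from alpha and 0.997 (SE 0.0641, adjusted p = 3.52e-08) from delta cells. Srp9 differed by 0.83 (SE 0.0628, adjusted p = 1.53e-07) from alpha cells, and Sec11c by 1.02 (SE 0.0672, adjusted p = 4.06e-08) from delta cells. For the COPII coat 3 of 11 genes differed upward from alpha cells (Sec13, Sec23b and Sec31a, named after their values were seen) and 1 downward, Sec24c. The other 7 COPII genes were not called: Sec16a, for example, had log2 changes of 0.33 in beta, 0.24 in alpha and 0.18 in delta cells, and a difference of 0.11 (SE 0.0902, adjusted p = 0.397) against alpha cells. Of the 14 TRAPP genes 5 had a more positive change in beta than in alpha cells and 3 a more negative one. Against delta cells 3 were more positive and 2 more negative. In KO alpha cells 6 of the 14 were lower relative to the median gene, where 9.97% of genes tested were. The more negative differences were those of Trappc11 and Trappc9 against both classes and Trappc13 against alpha cells, but these directions depended on the scaling. Against alpha cells the differences of Trappc11, Trappc9 and Trappc13 were 0.197, 0.14 and 0.34 with library size only, and -0.36, -0.42 and -0.22 with scaling by cell number, where Trappc11 and Trappc9 were called (adjusted p = 0.0286 and 0.0383). The downward differences of Sec24c and Tmed1 from alpha cells stood at 0.404 and 0.08 with library size only, and at -0.15 and -0.48 with scaling by cell number, where Tmed1 was called (adjusted p = 0.0150). By length, 21 of the 26 short members had a more positive change in beta than in alpha cells, against 19.9% of all short genes, and 19 of the 40 long members, against 10.9% of all long genes.

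Among WT cells alone, where the members were set side by side on 1 scale for the 3 classes, 30 of 66 members were higher and 15 lower in beta than in alpha cells, where 32% of genes were higher and 32% lower. Against delta cells 30 were higher and 10 lower, where 29.8% and 25.8% of genes were. Sec11c was higher in beta cells, with 288 and 353 CPM in WT beta cells, 131 and 148 CPM in WT alpha cells and 223 and 270.1 CPM in WT delta cells, and a log2 difference over alpha cells of 1.15 (SE 0.0456, adjusted p = 1.7e-12). Over delta cells its 0.34 became -1.04 with library size only and 0.92 with scaling by cell number. Spcs3 was higher as well, by 0.896 (SE 0.0497, adjusted p = 1.19e-10) over alpha and 0.704 (SE 0.0553, adjusted p = 1.59e-08) over delta cells; these differences were -0.02 and -0.67 with library size only and 1.30 and 1.28 with scaling by cell number. Sec16b, chosen after its values were seen, stood highest in beta cells, with 12.6 and 11.7 CPM in WT beta cells, 3.91 and 3.24 CPM in WT alpha cells and 1.08 and 1.603 CPM in WT delta cells; this is 1.72 (SE 0.138, adjusted p = 1.44e-08) over alpha and 3.11 (SE 0.230, adjusted p = 7.47e-09) over delta cells. Tmed6 stood highest in delta cells, at 5.99 and 9.23 CPM in WT beta cells, 1.05 and 2.31 CPM in WT alpha cells and 37.2 and 44.03 CPM in WT delta cells. Tmed3 stood highest in alpha cells, at 309 and 345 CPM in WT beta cells, 473 and 529 CPM in WT alpha cells and 226 and 248 CPM in WT delta cells, and its 0.43 over delta cells became -0.95 with library size only and 1.01 with scaling by cell number. Ssr2 and Tmed1 were lower in beta cells, with log2 differences of -0.75 and -1.32 against alpha and -0.71 and -1.12 against delta cells. For Sec16b, Tmed6, Ssr2 and Tmed1 these directions held with library size only and with scaling by cell number, but Ssr2 against delta cells was then at -0.13 with scaling by cell number and no longer called (adjusted p = 0.0723). Those scalings moved the median of all genes to -1.35 and 0.60 for beta against delta cells and to -0.92 and 0.40 for beta against alpha cells.

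Called in no class were 10 of the 66 tested members: Copg2, Copz1, Sec22a, Sec22c, Sec61a2, Trappc1, Trappc2, Trappc8, Trappc10 and Trappc12. Their log2 changes ran from -0.21 to 0.15 in beta, -0.22 to 0.37 in alpha and -0.16 to 1.03 in delta cells. The highest of these, Sec22c in delta cells, rested on few UMIs per cell (0.134 and 0.235 UMIs per cell in KO libraries, against 0.0392 and 0.0698 in WT libraries). Of the 37 members higher in KO beta cells, 4 were also higher in alpha cells (Sec61a1, Copa, Sec23a and Sec24a), and 7 were lower in both alpha and delta cells (Cope, Sec61b, Sec61g, Srp9, Srp19, Ssr4 and Tmed2). The classes come from the same libraries, so these calls are not independent of each other.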

How the data were processed

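Single islet cells of 2 KO and 2 WT libraries were profiled with the 10x 3′ assay. The authors deposited 1 matrix of raw UMI counts per gene and cell for each library; per the submitters' processing notes the tools were Cell Ranger 3.0.0 and Seurat 2.3.4 and the build was mm10. The libraries held 4337 and 2483 KO cells with 160208775 and 99156230 UMIs, and 5951 and 5841 WT cells with 215467602 and 228515309 UMIs. Filters of at least 500 genes and at most 20% mitochondrial UMIs removed 0 cells. Doublets scored against simulated pairs were removed, 150 and 49 in KO and 283 and 273 in WT libraries. Classes followed the hormone rules of the report. Cells that met both the alpha and the delta rule (2 to 4 per library) were left out.

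Counts were summed per class and library and tested with edgeR 4.0.16 (quasi-likelihood, TMM, filterByExpr, Benjamini-Hochberg over all genes tested) under R 4.3.3, after the steps were tested on simulated counts. At simulated log2 changes of 0.5 (dispersion 0.005), 62.4% were recovered in beta, 40.5% in alpha and 32.5% in delta cells. Of differences between classes, 13% were recovered for beta minus alpha and 7.5% for beta minus delta. At changes of 1, 83% to 92.5% were recovered over these comparisons. False calls at 0.5 were 1.6%, 3.57% and 9.72% of calls in beta, alpha and delta cells. SE is the log2 change divided by the root of the F statistic. Differences between classes came from 1 model of 12 sums with a library term. The members and lists were chosen with earlier results of these data known. Named by rule were, per role, up to 4 members called in beta cells with the largest log2 changes at 20 CPM or more, and the 3 with the smallest p for alpha cells, delta cells and each difference between classes. All other members, those of the WT comparisons included, were named after their values were seen. Alternatives were other scalings, filters, DESeq2 1.42.0, limma 3.58.1, a replicate block, cell sets and leaving out each library.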

Additional observations from a re-analysis of the deposited data

Results flagged for a closer look

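Genotype effects that differed between cell classes are listed because the difference itself passed edgeR's test in the 12-sum model. Relative to alpha cells, the log2 change of KO over WT in beta cells was higher by 0.94 for Tmed3, 0.85 for Sec61b and 0.83 for Srp9. Relative to delta cells it was higher by 1.26 for Tmed3, 0.997 for Sec61b and 1.02 for Sec11c. Each is among the members of the translocation and p24 groups, and the direction of each held with every scaling tried.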

How the results depend on the processing

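Scaling mattered most. With library size only and with scaling by cell number, 65 and 65 members were higher and 0 and 0 lower in KO beta cells, 26 and 64 higher and 3 and 0 lower in alpha cells, and 5 and 48 higher and 12 and 0 lower in delta cells. The same scalings called 65 and 64 members between WT beta and delta cells (40 in the fit reported). Library size only called 62 for the effect in beta minus delta cells (39). Such a scaling shifts all genes of a comparison together, so these counts are not read as particular to the members. Beta cells with 40 to 60% insulin UMIs gave 3 lower members. DESeq2 gave 2 higher members in alpha and 0 in delta cells (2 in delta cells at an unadjusted p under 0.05). No filter gave 3 higher in delta cells. As a share of all UMIs, KO minus WT was 0.589 percentage points in beta, 0.00581 in alpha and -0.131 in delta cells, against 0.4999, -0.0967 and -0.242 of non-hormone UMIs. The sign turned to 0.62 and 0.63 for Tmed5, 0.45 and 0.46 for Trappc13, 0.54 and 0.55 for Trappc11 and 0.59 and 0.597 for Trappc3 in beta cells (library size only, then cell number), and with cell number only to 0.32 for Spcs1, 0.32 for Ssr2 and 0.40 for Cope in alpha cells and 0.0447 for Ssr2, 0.18 for Sec61b and 0.198 for Spcs2 in delta cells. The cause of these changes, beyond the scaling itself, was not tested.

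Leaving out 1 library gave 27 to 38 higher and 4 to 8 lower members in beta cells, 0 to 7 and 0 to 19 in alpha cells, and 0 and 0 to 13 in delta cells. It gave 34 to 42 for beta minus alpha, 30 to 32 for beta minus delta, 36 to 42 between WT beta and alpha and 34 to 41 between WT beta and delta cells. The share difference ran from 0.455 to 0.545 in beta, -0.125 to -0.0686 in alpha and -0.271 to -0.212 in delta cells. These fits assume that a lone library varies like the other group. Deviations of libraries of the same number from their genotype mean correlated over genes by 0.062, 0.050 and 0.089 in beta, alpha and delta cells. With only 2 pairs this cannot tell whether libraries of the same number were paired. A replicate block gave 35 higher and 6 lower members in beta, 5 and 19 in alpha and 3 and 21 in delta cells. Of the other values for named members, 664 kept direction and call, 24 kept direction and lost the call and 14 turned sign. With 230 to 530 delta cells per library, members of few UMIs per cell have wide errors.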
